A study of Mus musculus with 15 samples.

Results

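SAM68 binding sites in genes of the class lincRNA (long intergenic non-coding RNA) were taken from the lists of sites deposited for 3 stages of differentiating mouse embryonic stem cells. A site was kept where the authors had assigned it to a gene of that class, and the Platr genes, a family of lincRNAs described in stem cells, were left out. This left 1445 sites in 160 genes, of 132293 sites in 7949 genes in all. The Platr genes left out were 5, with 31, 55 and 0 sites on days 0, 3 and 10. They were recognised by RefSeq symbol, which was found for 85 of the 160 genes kept. A Platr gene among the genes without a symbol would therefore remain.

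SAM68 was crosslinked to RNA by ultraviolet light, recovered with an antibody and mapped by iCLIP2, in which reverse transcription stops at the crosslinked nucleotide. Each day had 5 libraries by the labels, 15 in all, but 1 list of sites per day was analysed. Day 0 was the E14 line of embryonic stem cells, kept without feeder cells in serum with LIF, the GSK3 inhibitor CHIR-99021 and the MEK inhibitor PD0325901. Day 3 was embryoid bodies (floating balls of differentiating cells) formed in hanging drops in medium with less serum. Day 10 was embryoid bodies grown in spheroid microplates from the start, so for this group time cannot be told apart from culture format. Embryoid bodies were dissociated to single cells before crosslinking. The labels name no mutation, transgene or drug treatment beyond these media, and all groups come from 1 line.

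lincRNAs are transcribed from between protein-coding genes and are not known to be translated into proteins. Many are capped and spliced like messenger RNAs, and many stay in the nucleus. Malat1 and Neat1 build or occupy nuclear bodies (speckles and paraspeckles), H19 and Meg3 are expressed from 1 parental copy, and others carry microRNAs or small nucleolar RNAs in their introns or exons. SAM68 (Khdrbs1) is a nuclear RNA-binding protein of the STAR family that prefers RNA rich in U and A, with UAAA and UUAA as its best known core motifs.

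For 4 of the 1445 sites the letters around the site could be read, because they lie in a promoter window of RefSeq (GRCm38.p6, 250 nt before to 50 nt after a transcript start). They are shown because they give the letters at and around called sites. All 4 are on the minus strand, and the 5 nt of each site are in capitals. The first window belongs to 1 of 26 transcript starts of 9030622O22Rik, a gene whose sites were all on day 10, and spans chr2:148031939-148032238. It holds 2 day 10 sites, centred 85 nt before and 13 nt after that start.
9030622O22Rik: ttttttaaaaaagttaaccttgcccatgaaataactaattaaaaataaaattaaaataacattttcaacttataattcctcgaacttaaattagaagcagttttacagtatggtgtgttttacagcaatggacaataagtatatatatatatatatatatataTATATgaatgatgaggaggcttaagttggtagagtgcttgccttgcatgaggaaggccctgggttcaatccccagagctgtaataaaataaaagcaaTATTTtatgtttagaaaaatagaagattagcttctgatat
The other windows are cut to 20 nt on each side of the site's centre. The first is a day 3 site of ENSMUSG00000097648.1 at chr1:113935409-113935449, and the second a day 10 site of ENSMUSG00000097743.1 at chr14:56701097-56701137.
ENSMUSG00000097648.1: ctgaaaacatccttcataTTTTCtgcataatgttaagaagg
ENSMUSG00000097743.1: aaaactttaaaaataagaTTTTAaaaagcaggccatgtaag
The site letters are TATAT and TATTT in 9030622O22Rik, TTTTC in ENSMUSG00000097648.1 and TTTTA in ENSMUSG00000097743.1, so each held at least 3 T in 5 letters. The motif TAAA (UAAA in RNA), read on the given strand with overlapping matches counted, occurred 7 times in the 9030622O22Rik window and TTAA 6 times, and some of their matches overlap each other. Over all 32851 RefSeq promoter windows of that length, 58.0% held TAAA on the given strand and 74.3% on either strand, and 52.4% held TTAA. These percentages count windows with at least 1 match. The number of matches per window was not counted over all windows. TAAA occurred 2 times in the shorter window around the ENSMUSG00000097743.1 site and 0 times in the one around the ENSMUSG00000097648.1 site, with no background at that length. The sequence around the other 1441 sites and whether they lie in exons or introns were not analysed here.

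lincRNA sites made up 1.58% of the day 0 list (470 of 29740 sites, exact 95% interval 1.44% to 1.73%), 1.11% of the day 3 list (315 of 28266, 0.995% to 1.24%) and 0.888% of the day 10 list (660 of 74287, 0.822% to 0.959%). Day 10 therefore had the most lincRNA sites and the smallest lincRNA share. The lincRNA share on day 10 was 0.562 times that on day 0 (95% counting interval 0.499 to 0.634), on day 3 it was 0.705 times that on day 0 (0.609 to 0.815), and on day 10 it was 0.797 times that on day 3 (0.696 to 0.915). The same ratios for protein-coding sites were 1.02, 1.01 and 1.01. Protein-coding sites made up 95.3%, 96.5% and 97.0% of the lists on days 0, 3 and 10. Their share thus had little room to rise, and their ratios are a weak contrast. Processed transcripts held 0.931%, 0.736% and 0.660% of the lists on days 0, 3 and 10. Antisense genes held 0.787%, 0.573% and 0.901%, so they had no smaller share on day 10 than on day 0. Antisense sites in the span of Airn alone numbered 3, 2 and 267 on days 0, 3 and 10. The antisense share without Airn was not computed, so the day 10 value may not describe the other antisense genes.

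These intervals cover counting error only. No values of single libraries were used, so nothing here measures how replicates vary, and the days were not tested against each other. Sites within a gene are not independent, and a list can be longer through depth, through the calling of sites or through bound RNA: the day 10 list was 2.50 times the length of the day 0 list. RNA levels were not used, so a smaller share of sites cannot be told apart from less of that RNA, and fewer cells of a type cannot be told apart from less RNA per cell. A gene without sites in a list has no lower limit that depth would give. For such genes taken singly only the numbers are stated. They are included in the counts of genes past a fold and in the median ratios.

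**Figure D1:**
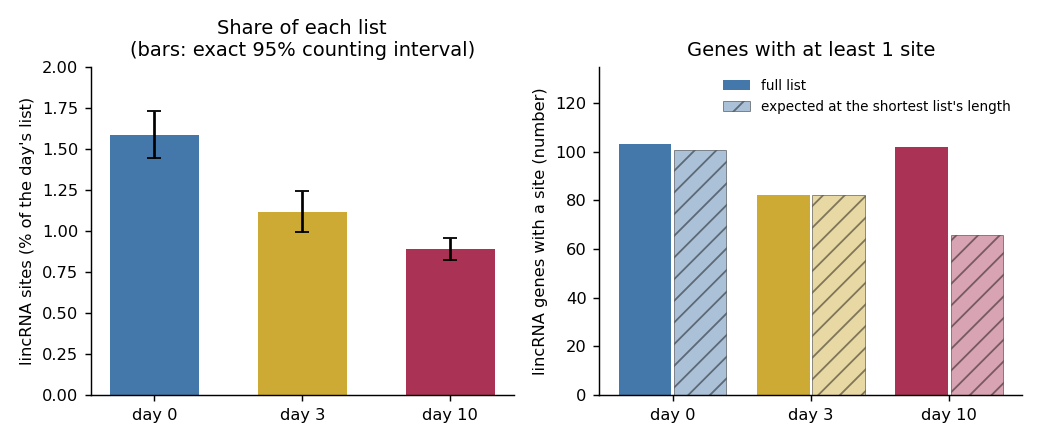
Share of each day's list held by lincRNA sites, in percent with exact 95% counting intervals (left), and number of lincRNA genes with at least 1 site (right) on the full lists (solid) and expected at the length of the shortest list (hatched). The share is 1.58%, 1.11% and 0.888% on days 0, 3 and 10, while the number of genes at equal length is 101, 82 and 65.7.

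The sites lay in 103 lincRNA genes on day 0, 82 on day 3 and 102 on day 10. When every list was thinned to the 28266 sites of the shortest, 101 genes on day 0, 82 on day 3 and 65.7 on day 10 would be expected to keep a site. lincRNA genes then made up 2.03%, 1.63% and 1.38% of all genes with a site. Most lincRNA genes had few sites: the median was 2 on each day, against 3, 3 and 4 for protein-coding genes. A single site was all that 45.6% of lincRNA genes had on day 0, 46.3% on day 3 and 40.2% on day 10, against 32.7%, 32.6% and 23.7% of protein-coding genes. The 8 genes with most sites held 43.2%, 46.0% and 50.3% of the lincRNA sites of the 3 days.

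Of the 160 genes, 42 (26.3%) had sites on all 3 days, and these held 857 sites, 59.3% of all lincRNA sites. Another 36 genes (22.5%) had sites on day 0 alone, 29 (18.1%) on day 10 alone and 10 on day 3 alone. Day 0 and day 3 shared 12 further genes, day 0 and day 10 shared 13, and day 3 and day 10 shared 18. Among protein-coding genes 42.3% had sites on all 3 days, 7.53% on day 0 alone and 20.0% on day 10 alone. This comparison was not adjusted for the smaller number of sites per lincRNA gene.

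The genes with most sites over the 3 lists were Neat1 (89 sites), Malat1 (85), 5031425E22Rik (84), 9030622O22Rik (80) and ENSMUSG00000096958.1 (74). RefSeq names by position were found for 85 of the 160 genes, which held 63.8% of the sites, and the others are given by Ensembl ID. Of the unnamed genes, 24 had at least 50% of their sites inside a RefSeq protein-coding span, and their sites are lincRNA sites by the authors' assignment. The order of genes differed between days. On day 0 the most sites were in ENSMUSG00000057215.6 with 33, Neat1 with 32 and ENSMUSG00000096958.1 with 32. On day 3 ENSMUSG00000097648.1 with 30 and ENSMUSG00000096958.1 with 26 led, and on day 10 9030622O22Rik with 80 and Malat1 with 65.

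**Figure D2:**
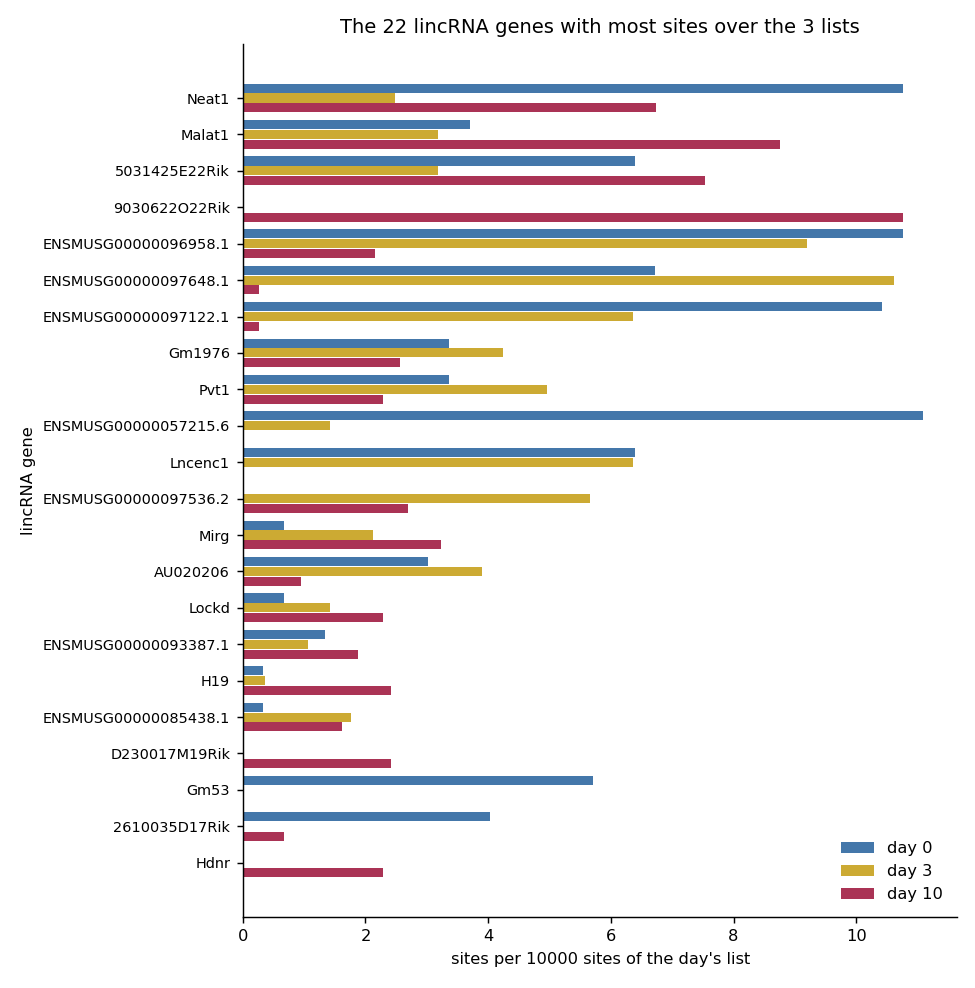
Sites per 10000 sites of each day's list for the 22 lincRNA genes with most sites over the 3 lists, with a bar per day. 9030622O22Rik stands at 10.8 on day 10 with no site on the other days, and ENSMUSG00000057215.6 stands at 11.1 on day 0, 1.42 on day 3 and 0 on day 10.

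Comparisons of single genes between days used the ratio of a gene's shares of both lists, for genes with at least 10 sites over both. A gene is called past the fold where this ratio is at least 2 or at most 0.5, and the share of all genes in the lists that pass is given beside it as background. For day 10 against day 0, 31 lincRNA genes could be compared. Of these 12 (38.7%) were past the fold with a larger share on day 10, against 34.1% of all genes, and 14 (45.2%) with a smaller share, against 24.7% of all genes. The median ratio was 0.681 over these lincRNA genes and 1.10 over all 2425 genes. For day 3 against day 0, 2 of 21 genes had a larger share on day 3, against 19.3% of all genes, and 9 (42.9%) a smaller one, against 20.3%. The median ratio was 0.611, against 1.00 for all 1573 genes. For day 10 against day 3, 9 of 23 genes (39.1%) had a larger share on day 10, against 29.1% of all genes, and 8 (34.8%) a smaller one, against 21.3%, with medians of 1.62 and 1.03. Both directions occurred in each comparison. Genes with sites on only 1 of the 2 days compared count as past the fold, here and in the background. In the 3 comparisons as ordered above, 7, 2 and 3 lincRNA genes had sites on the later day only. Another 5, 3 and 1 had sites on the earlier day only. The share of genes with a larger ratio for day 10 over day 0 was near the background.

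The counts depend on how many sites a gene must have. With at least 20 sites over both lists, 4 of 12 genes had a larger share on day 10 than on day 0 (35.6% of all genes) and 4 a smaller one (19.8%), 0 of 11 a larger (18.2%) and 3 a smaller one (18%) on day 3 than on day 0, and 4 of 12 a larger (29.6%) and 5 a smaller one (17.1%) on day 10 than on day 3. With at least 5 sites, 15 of 47 genes had a larger share on day 10 than on day 0 (34.5% of all genes) and 23 a smaller one (26.8%). For day 3 against day 0, 6 of 39 had a larger (23%) and 14 a smaller share (21.3%), and for day 10 against day 3, 14 of 40 a larger (29.2%) and 13 a smaller one (24.6%). At 3-fold, 4 of 23 had a larger share on day 10 than on day 3, against 22% of all genes.

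The nuclear RNAs had sites on every day. Neat1, the scaffold of paraspeckles on chromosome 19, had 32 sites on day 0, 7 on day 3 and 50 on day 10. As a share, day 3 stood at 0.230 times day 0 (0.0857 to 0.531), and day 10 at 2.72 times day 3 (1.23 to 7.11). Its share on day 10 was 0.626 times that on day 0 with an interval of 0.394 to 1.01. The low point was thus on day 3.

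Malat1, the neighbouring RNA that gathers in nuclear speckles, had 11 sites on day 0, 9 on day 3 and 65 on day 10. Its share on day 10 was 2.37 times that on day 0 (1.24 to 4.97) and 2.75 times that on day 3 (1.36 to 6.28). Of the 65 sites on day 10, 35 lay in a run of 469 nt, 66 to 535 nt from the 5' end of its RefSeq span (chr19:5802137-5802606, minus strand, first to last site centre), each site within 50 nt of the next. The same stretch held 2 sites on day 0, 1 on day 3 and 35 on day 10. No other gene in the day 10 list had more than 4 sites in such a run, and the longest runs on days 0 and 3 held 3 and 4 sites. Outside the run Malat1 had 9 sites on day 0, 8 on day 3 and 30 on day 10, and the ratios were 1.33 (0.618 to 3.20) for day 10 over day 0 and 1.43 (0.639 to 3.60) for day 10 over day 3. For the whole gene, run included, the ratios with clusters within 50 nt counted once were 1.05 and 1.13. Both intervals without the run include 1. What gives rise to the run was not tested. Per kb of RefSeq span Malat1 had 9.31 sites on day 10, against 2.41 for Neat1 and 6.88 for H19.

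**Figure D3:**
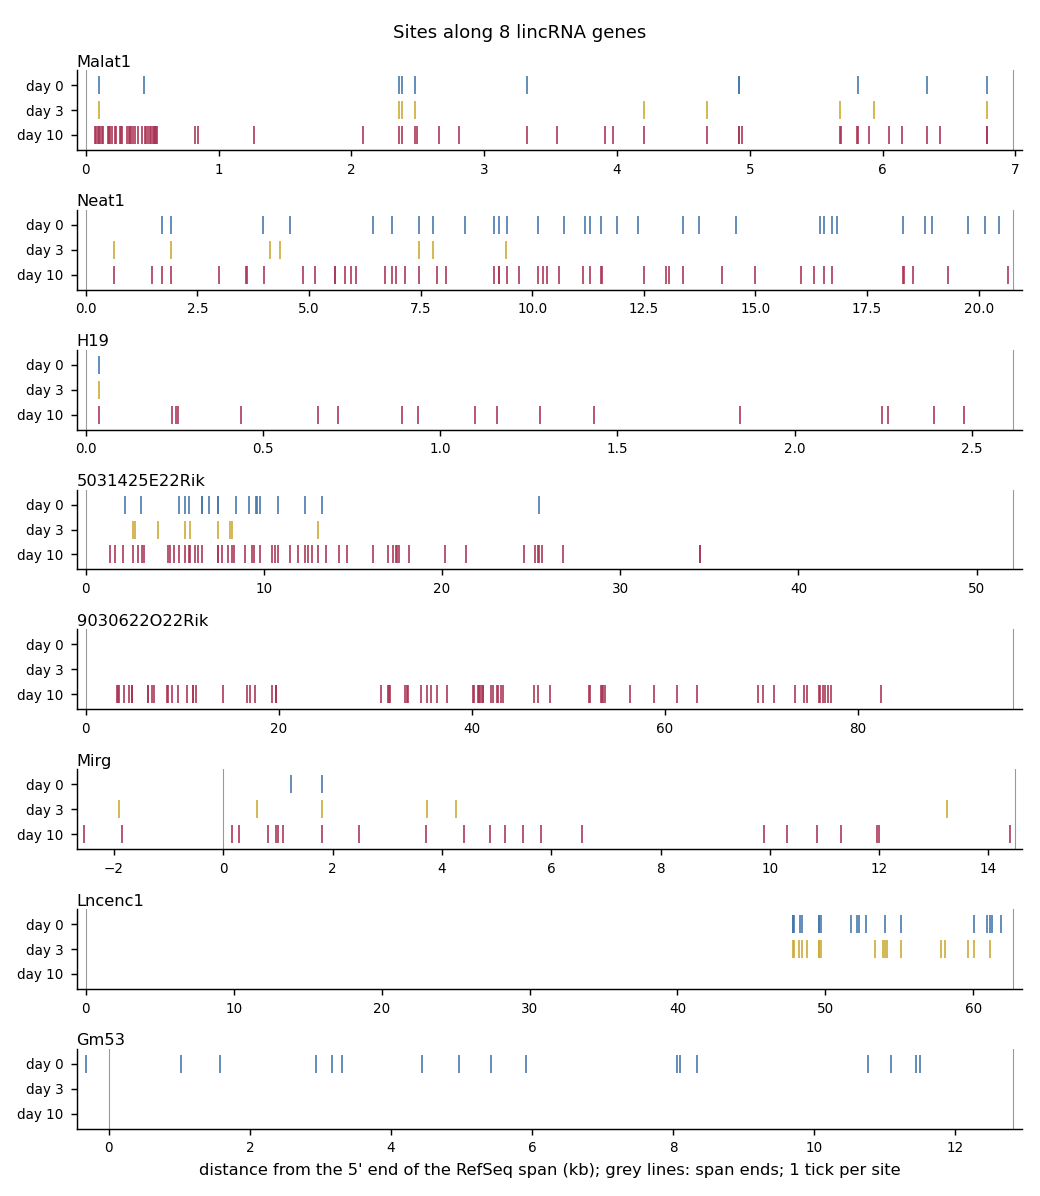
Positions of the sites of 8 lincRNA genes as distance in kb from the 5' end of the RefSeq span, with 1 row per day and 1 tick per site; grey lines mark the span ends. Malat1 shows 35 of 65 day 10 sites packed near the 5' end, while the 80 sites of 9030622O22Rik spread along the span.

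Members in imprinted clusters, where 1 parental copy is silenced, had more sites on day 10 than on the earlier days. H19, transcribed next to Igf2 from the maternal copy, had 1 site on day 0, 1 on day 3 and 18 on day 10, and its share on day 10 was 7.21 times that on day 0 (1.14 to 300.2). Mirg, a host of many microRNAs in the Dlk1-Dio3 cluster on chromosome 12, had 2, 6 and 24 sites on days 0, 3 and 10, a ratio of 4.80 (1.19 to 41.9) for day 10 over day 0. Meg3, a maternally expressed lincRNA at the other end of that cluster, had none on day 0, 2 on day 3 and 12 on day 10. An unnamed gene between them, ENSMUSG00000098202.1, had none on day 0, 3 on day 3 and 13 on day 10. The 3 imprinted members of a list of 9 imprinted RNAs together held 1.01, 3.18 and 7.27 sites per 10000 on days 0, 3 and 10. Their protein-coding neighbours differed: Igf2 had 0, 0 and 24 sites on days 0, 3 and 10, while Dlk1 and Rtl1, next to Meg3, and Dio3, next to Mirg, had none in any list.

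Some lincRNAs are cut into microRNAs by way of a hairpin in their sequence. No lincRNA site overlapped any of the 1005 hairpins of the RefSeq table on its strand, and 19 lay within 200 nt of one. Of these 7 were in Mirg (none on day 0, 2 on day 3, 5 on day 10) and 5 in H19 (all on day 10). The share of all sites that lie this close to a hairpin was not computed. These numbers therefore have no background and do not show that sites gather near hairpins. The closest were a Mirg site 11 nt from Mir453 and an H19 site 14 nt from Mir675, the microRNA that H19 is processed into. The mature sequences of the H19 and Mirg hairpins within 50 nt of a site, from RefSeq (GRCm38.p6), are shown with the seed (bases 2 to 8) in capitals because they lie beside the nearest sites of H19 and Mirg.
mmu-miR-675-5p: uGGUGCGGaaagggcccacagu
mmu-miR-675-3p: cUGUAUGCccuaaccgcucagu
mmu-miR-453: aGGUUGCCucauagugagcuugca
mmu-miR-496a-5p: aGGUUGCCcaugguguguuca
mmu-miR-496a-3p: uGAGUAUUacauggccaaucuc
mmu-miR-377-5p: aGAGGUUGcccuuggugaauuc
mmu-miR-377-3p: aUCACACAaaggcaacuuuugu
miR-453 and miR-496a-5p share the seed GGUUGCC, and the other seeds differ. The remaining 7 of the 19 sites were near hairpins of Mir17hg (2), Snhg20 (2) and 3 further genes with 1 each, and Mir17hg, the host of the miR-17 cluster, had 4, 3 and 4 sites on days 0, 3 and 10. Of the host genes, Mir124a-1hg, which carries the neuronal miR-124, had 9, 1 and 0 sites on days 0, 3 and 10. The miR-124 hairpin was not analysed here, so these sites do not enter the counts near hairpins. Its neighbour Kif13b had 21, 8 and 8. The 6 host genes picked by symbol (beginning with Snhg, or beginning with Mir and ending in hg) held 7.06, 4.25 and 1.48 sites per 10000 on days 0, 3 and 10. Of their 21 sites on day 0, 9 were in Mir124a-1hg. Mirg and H19, which had most of their sites on day 10, are not among them, so the values do not describe all hosts of microRNAs.

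Genes with sites on day 10 alone were led by 9030622O22Rik, with none on days 0 and 3 and 80 on day 10. Its outermost site, from which distances to neighbouring genes are counted here and for the other genes, lies 5.56 kb from Foxa2, an endoderm transcription factor, which had no site in any list. Hdnr, 7.88 kb from the heart transcription factor Hand2, had none on days 0 and 3 and 17 sites on day 10, and Hand2 had 0, 0 and 5. D230017M19Rik had 0, 0 and 18 sites on days 0, 3 and 10. Other genes had few or no sites on day 0 and more later. Lockd, which lies downstream of the cell cycle inhibitor gene Cdkn1b, had 2, 4 and 17 sites on days 0, 3 and 10. ENSMUSG00000097536.2, 3.03 kb from the chromatin subunit gene Arid2, had none on day 0, 16 on day 3 and 20 on day 10. As a share ENSMUSG00000097536.2 was highest on day 3, and day 10 stood at 0.476 times day 3 (0.234 to 0.982), past the fold. Arid2 had 6, 37 and 32 sites in the same order of days.

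5031425E22Rik had 19 sites on day 0, 9 on day 3 and 56 on day 10, and its share on day 10 was 1.18 times that on day 0 (0.690 to 2.10). It lies 0.05 kb from Kmt2e, a chromatin regulator gene, which had 8, 5 and 71 sites in the same order. When the span was cut into 5 equal parts, the first held 15 of 19 sites of 5031425E22Rik on day 0, 8 of 9 on day 3 and 27 of 56 on day 10. Over all named lincRNA genes 29.5% of sites on day 0, 29.7% on day 3 and 33.5% on day 10 were in the first part, and 21.7%, 17.7% and 10.1% in the last. On day 10 the first part of Malat1 alone held 38 sites.

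Another group had sites on day 0 or day 3 and fewer or none on day 10. Lncenc1, a lincRNA of naive embryonic stem cells, had 19 sites on day 0, 18 on day 3 and none on day 10, with none in the first 3 of 5 equal parts of its span. ENSMUSG00000057215.6 had 33, 4 and 0 sites on days 0, 3 and 10. Gm53, which lies 8.17 kb from Hoxb9 in the Hoxb cluster, had 17, 0 and 0, and Hoxb9 and Hoxb13 had none. Gm26510 had 13, 1 and 0, 1110019D14Rik had 12, 3 and 1, and 2610035D17Rik had 12, 0 and 5. The protein-coding neighbours of 2610035D17Rik are Slc39a11 at 48.7 kb, with 13, 0 and 2 sites, and Sox9 at 328.2 kb, with none. ENSMUSG00000097648.1 had most of its sites on day 3, with 20, 30 and 2 on days 0, 3 and 10, and a share on day 10 of 0.0400 times that on day 0 (0.00454 to 0.165). Other genes with most of their sites on day 3 include Ftx and Lncpint. Ftx, a regulator of Xist at the X inactivation centre, had none on day 0, 10 on day 3 and 3 on day 10. Lncpint, known as a target of p53, had 7 on day 3 and none on the other days. Xist had 1 site, on day 3.

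A pair of IDs with a smaller share on day 10 lie in a cluster of zinc finger genes on chromosome 4. ENSMUSG00000096958.1 had 32, 26 and 16 sites on days 0, 3 and 10 and ENSMUSG00000097122.1 had 31, 18 and 2. ENSMUSG00000096958.1 overlaps Zfp993, which had 24, 12 and 0 sites, and lies between Zfp981 with 16, 9 and 0 and Rex2 with 17, 7 and 0. ENSMUSG00000097122.1 overlaps Zfp982 with 11, 3 and 0 sites, Zfp978 with 1, 2 and 0 and Zfp988 with none, and lies between Zfp991 with 1, 2 and 0 and Zfp985 with 17, 6 and 0. None of these had a site on day 10, and their counts on the earlier days differed widely. The copies in this cluster resemble each other, so the assignment of reads among them is uncertain. Without these 2 genes the lincRNA share on day 10 was 0.631 times that on day 0 and 0.901 times that on day 3. With them these ratios were 0.562 and 0.797, so both differences were smaller without the 2 genes. No intervals were computed without them, so whether the smaller share on day 10 than on day 3 then exceeds counting error is not known.

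AU020206, with 9 sites on day 0, 11 on day 3 and 7 on day 10, lies 16.0 kb from Akap13, a scaffold for signalling enzymes, which had 0, 4 and 54 in the same order. As a share AU020206 on day 10 was 0.311 times day 0 (0.0985 to 0.940) and 0.242 times day 3 (0.0796 to 0.684), past the fold in both. Pvt1, next to the growth regulator gene Myc, had 10, 14 and 17 sites on days 0, 3 and 10, and Myc had none. As a share Pvt1 on day 10 was 0.681 times day 0 (0.294 to 1.66) and 0.462 times day 3 (0.214 to 1.01). The ratio to day 3 is past the fold, with an interval that includes 1. Gm1976 had 10, 12 and 19 sites, and its share on day 10 was 0.761 times that on day 0 (0.337 to 1.83). Trp53cor1, a p53 target next to Cdkn1a, had 5, 1 and 6, and its share on day 10 was 0.480 times that on day 0 (0.122 to 1.99), past the fold with an interval that includes 1.

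Lists of known non-coding RNAs were also looked up among the members. Among 13 nuclear or abundant RNAs, 5 were members by name and held 57, 37 and 136 sites on days 0, 3 and 10. Per 10000 sites of the list these were 19.2, 13.1 and 18.3, so the larger number on day 10 was not a larger share than on day 0. The X chromosome list had 2 of 5, with 0, 11 and 3 sites, the stem cell list 2 of 5, with 21, 18 and 0, the heart and mesoderm list 2 of 11, with 0, 2 and 13, and the neural list 1 of 7, with 9, 1 and 0. Norad and Oip5os1 are not in these counts, although lincRNA sites lay in their RefSeq spans (1, 2 and 4 in Norad and 0, 0 and 2 in Oip5os1), because no member took their names by the rule used. Of the other RNAs listed, some had their sites under other classes, among them Kcnq1ot1 and Airn (antisense) and Firre, Tug1, Gas5 and Rian (processed transcripts), and many had no site in their span. Sites were also counted in marker genes. The lists were chosen with earlier results of these data known, so these counts are not an independent check of the labelled stages. The 6 stem cell genes (such as Nanog) held 151, 10 and 1 sites on days 0, 3 and 10, 3 primed-state genes 0, 45 and 0, and 7 heart genes 0, 4 and 727. Endoderm markers held 0, 5 and 169 sites, neural markers 0, 0 and 149 (in 1 of 3 genes), and blood and endothelium markers 0, 0 and 38. Site counts are not expression values, and the part of cell type in the lincRNA differences was not tested.

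Sites were counted as recurring where a same-strand site of another day overlapped by at least 1 nt. Of day 0 sites in lincRNAs, 18.7% recurred on day 3 (88 of 470, 15.3% to 22.5%) and 18.9% on day 10 (89 of 470, 15.5% to 22.8%), against 17.2% and 24.1% of protein-coding sites. Of day 3 sites 26.7% recurred on day 0 (84 of 315, 21.9% to 31.9%) and 26.7% on day 10, against 17.9% and 25.8%. Of day 10 sites 13.6% recurred on day 0 (90 of 660, 11.1% to 16.5%) and 12.9% on day 3 (85 of 660), against 9.50% and 9.80%. lincRNA sites recurred in a larger share than protein-coding sites in 5 of the 6 directions, the exception being day 0 sites on day 10. For day 0 sites on day 3 and day 3 sites on day 10 the lincRNA interval includes the protein-coding value. The lincRNA share was larger in 4 of the 6 directions with centres within 50 nt or with the Platr genes put back, where day 3 sites recurred on day 10 at 32.4% and 22.7%, against 33.1% and 25.8% of protein-coding sites. In genes with sites on both days the lincRNA values were 25.2%, 31.3%, 33.7%, 32.6%, 21.0% and 18.2%, against 19.1%, 27.1%, 20.1%, 27.7%, 12.5% and 12.0% for protein-coding genes in the same order of directions. These are descriptions with no test between classes.

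**Figure D4:**
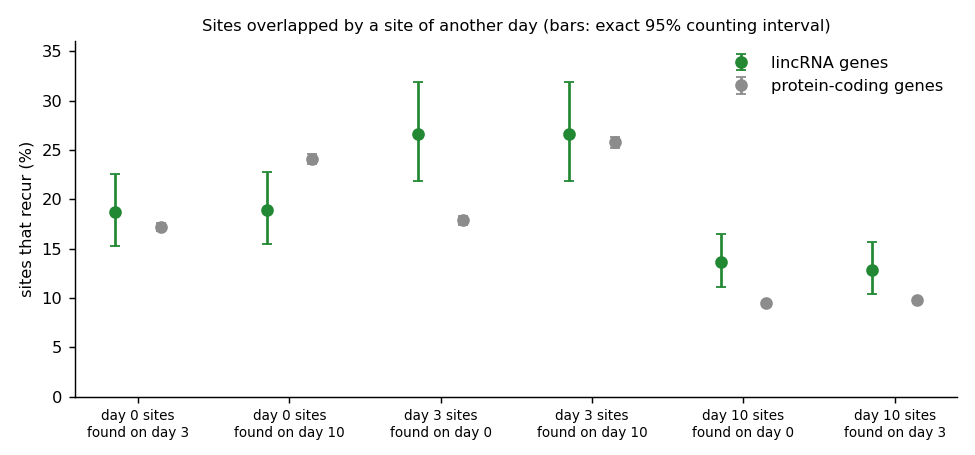
Percent of sites overlapped by a site of another day, for lincRNA and protein-coding genes in the 6 directions, with exact 95% counting intervals. Day 3 sites have the highest lincRNA value, 26.7% on day 0 and on day 10.

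Merged over days, the lincRNA sites made 1219 positions, of which 38 (3.12%, 2.22% to 4.25%) were used on all 3 days, against 2.52% of protein-coding positions, a value inside that interval. They lay in 25 genes, and 5 genes held 16 of them: Malat1 and ENSMUSG00000096958.1 with 5 each and Neat1, 5031425E22Rik and Snhg12 with 2 each. AU020206 and Gm19951 also had 2. Another 17 genes had sites on all days without a common position. In 6 genes every site of all 3 days fell within 15 nt, among them Gm19951, with 2 sites on each day at chr12:99645568-99645574 on the plus strand, and Snhg10, a small nucleolar RNA host, with 1 site each day at position 105031351 of chromosome 12. A Snhg12 site at 132309465 on chromosome 4 lay inside the small nucleolar RNA Snora16a on all 3 days. Altogether 7 lincRNA sites in 3 genes overlapped a small RNA, in each gene at a single position found on more than 1 day. The others were in a transfer RNA (B230208H11Rik) and a small RNA of another class (ENSMUSG00000097113.7), both on days 3 and 10. The share of all sites that overlap a small RNA was not computed.

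By the median, sites of a lincRNA lay closer together than those of protein-coding genes. The median distance between neighbours was 640, 924 and 358 nt on days 0, 3 and 10, against 1477, 1797 and 775 nt for protein-coding genes. Neighbours within 50 nt made up 10.9%, 9.44% and 16.8% of lincRNA pairs, against 5.12%, 3.98% and 7.15%. On day 10 the lincRNA pairs include those of the Malat1 run, in which 35 sites each lay within 50 nt of the next. The day 10 values without Malat1 were not computed. The difference in gene length between the classes was not taken into account.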

How the data were processed

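iCLIP2 of SAM68 was made in 15 libraries, 5 per day, and 3 lists of sites were analysed, 1 per day. Per the file headers, the authors assigned sites to genes and removed those in overlapping genes. Each site is 5 nt wide, and the score the authors deposited is 0 for every site and was not used. The aligner STAR 2.7.11a and the programs SAMtools 1.22.1, UMI-tools 1.1.6 and bedtools 2.31.1 stand in the submitters' processing notes, as do MultiQC 1.31, FastQC 0.12.1 and the builds GRCh38.p14 and GRCm38.p5, with no role. Not given in the sources used here are the site caller and the way libraries were joined into 1 list. Depth is unknown.

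Python 3.11.15 with NumPy 2.4.6, pandas 2.3.3, SciPy 1.17.1 and matplotlib 3.10.9 was used. Symbols came from RefSeq lncRNA spans (GRCm38.p6) that covered 50% or more of a gene's sites, not on the opposite strand. Shares have exact (Clopper-Pearson) and ratios of shares exact conditional 95% intervals, which cover counting error only. The named genes are the 8 with most sites per day, the 5 largest and 5 smallest ratios per pair of days at 10 or more sites, the 5 with most positions used on all days, and list members; other genes were chosen after their values were seen. The members and lists were chosen with earlier results of these data known. The steps were tested on simulated data.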

Additional observations from a re-analysis of the deposited data

How the results depend on the processing

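No library could be left out, since each of the 3 lists is already 1 per day, and with every score at 0 no stricter threshold could be set. No paired analysis was possible because the lists carry no columns for single libraries. With the Platr genes put back, the day 3 share was 1.31% and the ratio of day 10 to day 3 was 0.679. The day 10 share was 0.817% with sites within 50 nt counted once and 0.821% without Neat1. Genes with at least 2 sites numbered 56, 44 and 61 on days 0, 3 and 10, and at equal list length 65.7 genes were expected on day 10. With at least 5 sites over both lists, 23 genes had a smaller share on day 10 than on day 0, 6 had a larger and 14 a smaller share on day 3 than on day 0, and 14 had a larger and 13 a smaller share on day 10 than on day 3. With at least 20 sites these numbers were 4, 0, 3, 4 and 5, and 4 genes had a larger share on day 10 than on day 0. At 3-fold, 4 genes had a larger share on day 10 than on day 3. Recurrence depended on the overlap asked for. For day 0 sites on days 3 and 10, day 3 sites on days 0 and 10, and day 10 sites on days 0 and 3, it was 8.94%, 8.72%, 13.3%, 16.2%, 6.21% and 7.73% with all 5 nt shared, 24.9%, 23.8%, 34.9%, 32.4%, 20% and 17.6% with centres within 50 nt, and 25.2%, 31.3%, 33.7%, 32.6%, 21.0% and 18.2% in genes with sites on both days. The Malat1 ratios were 1.05 for day 10 over day 0 and 1.13 for day 10 over day 3 with clusters counted once. Leaving out the zinc finger pair on chromosome 4 and leaving out the Malat1 run were chosen after seeing the data. Of the gene ratios recomputed, which leave out some called genes such as Lockd and Trp53cor1, others also left the 2-fold range with clusters counted once: Meg3 on day 10 over day 3 (1.58, 2.28 with all sites), 5031425E22Rik on day 3 over day 0 (0.586, 0.498 with all sites) and ENSMUSG00000097536.2 on day 10 over day 3 (0.506, 0.476 with all sites).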
